A study of Mus musculus with 36 samples.

Results

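Fibroblast growth factors (FGFs) are secreted proteins that carry signals between neighbouring cells of the embryo. The ligands read here are Fgf3, Fgf4, Fgf5, Fgf8, Fgf10, Fgf15, Fgf17 and Fgf18, chosen by gene symbol as FGFs of the primitive streak and the tail bud. They are 8 of the 30869 gene symbols in the deposited table. All 12 of the 45281 probes that carry these symbols were read, and 10 of the 12 were detected on at least 1 array and tested. The other 2 probes, 1 for Fgf10 and 1 for Fgf18, were detected on 0 of 36 arrays.

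The study measured RNA in small pieces cut from wild-type MF1 mouse embryos while the body axis was lengthening. Embryos were dissected in M2 medium, like pieces were pooled (6 to 74 per array), and the RNA was isolated, amplified and read on 36 bead arrays. The 16 regions had 2 or 3 arrays each. Headfold embryos of E7.5 gave an anterior piece (A), a posterior piece (P) and a proximal posterior piece (PP). Embryos of 2 to 5 somites at E8.5 gave the rostral node (RN), its border with the streak (NSB, the node-streak border), the anterior (St1) and posterior (St5) streak, and the CLE, the caudal lateral epiblast at the sides of the streak. The tail bud pieces were the chordoneural hinge (CNH), where notochord and neural tube meet at the tail tip, at E9.5 (22 to 25 somites), E10.5 (32 to 35), E11.5 (40 to 45), E12.5 (50 to 55) and E13.5 (60 to 63), and, on the first 3 of these days, the tissue behind the hinge (P-CNH). There were 3 arrays for A, NSB, CLE and the CNH of E11.5, and 2 for the other 12 regions. An array detected 10814 to 16256 probes, with a median of 15054.

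FGF ligands bind FGF receptors and act in part through the MAP kinase pathway, which induces transcription factors such as Etv4 and Etv5 and feedback inhibitors such as Dusp6, Spry4 and Il17rd. In the streak and tail bud, FGF signalling is needed for cells to leave the epiblast, for presomitic mesoderm to stay unsegmented and for axial progenitors to persist. When axis elongation ends, FGF signalling in the tail declines.

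Each of the 8 ligands varied over the 16 regions. In the limma F-test over regions, 8 of 8 passed, against 35.6% of all tested probes, with adjusted p from 7.54e-14 for Fgf17 and 1.1e-10 for Fgf8 to 0.00776 for Fgf4 and 0.0178 for Fgf3. The other 4 had adjusted p of 3.32e-08 (Fgf5), 3.7e-08 (Fgf10), 6.08e-07 (Fgf18) and 6.48e-05 (Fgf15). Fgf4 entered the test only through St1, its highest region, so its pass says little beyond its detection there, and it was lost without St1 replicate 1 or St1 replicate 2, which left 7 of 8. Fgf18 entered only through tail bud arrays of E9.5 to E11.5, and Fgf5 only through A, P, RN and NSB. Their passes, and their differences from regions that did not detect them, thus partly follow from where they were detected. Fgf8 and Fgf15 were detected on all 36 arrays, Fgf17 on 33, Fgf10 on 25, Fgf3 on 22, Fgf5 on 10, Fgf18 on 9 and Fgf4 on 2. The p-values measure the spread between these pooled samples. In pieces of mixed tissue, fewer cells of a type and less RNA per cell cannot be told apart.

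Fgf8 is needed for cells to move away from the streak and, together with Fgf4, for presomitic mesoderm to be maintained. On the E7.5 arrays its normalised intensity was 7.23, 6.71 and 8.14 log2 units in A, 9.79 and 10.28 in P, and 10.57 and 11.06 in PP. At E8.5 it was 9.24 and 9.26 in RN, 11.21, 11.17 and 12.19 in NSB, 10.74, 12.71 and 12.49 in CLE, 12.15 and 11.95 in St1, and 11.48 and 11.21 in St5. A was below every other region, and RN lay below the other E8.5 regions with no shared range. In the CNH, Fgf8 was 12.70 and 12.60 at E9.5, 12.53 and 12.47 at E10.5, 12.29, 12.81 and 12.80 at E11.5, 11.53 and 11.72 at E12.5, and 10.95 and 10.66 at E13.5. In P-CNH it was 13.04 and 13.20 at E9.5, 12.58 and 12.74 at E10.5, and 12.62 and 12.66 at E11.5. Ordered by mean, E9.5 P-CNH was highest at 13.12 ± 0.11 (SD, n = 2) and shared no range with the next region. The other tail bud regions of E9.5 to E11.5 followed, led by E10.5 P-CNH at 12.66, and overlapped one another in order. Then came St1, CLE, E12.5 CNH, NSB and St5 at 12.05 to 11.34, in a run of overlapping neighbours, and then PP and E13.5 CNH (10.82 and 10.81), P (10.04), RN (9.25) and A (7.36 ± 0.73, SD, n = 3), each separate from the next except PP and E13.5 CNH. Of the 15 neighbouring pairs in this order, 9 overlapped. These are means of arrays with no batch term. The fitted means, which have one, put E10.5 P-CNH first (13.12), then E10.5 CNH (12.96), E9.5 P-CNH (12.89) and E9.5 CNH (12.74), and put St1 (12.51) above E11.5 P-CNH (12.10), so which region had the most Fgf8 depended on the batch term.

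Fgf17 belongs to the same subfamily as Fgf8. At E7.5 it was not detected in A (4.89, 4.61 and 5.72) and read 8.496 and 9.480 in P and 10.36 and 10.79 in PP. At E8.5 it was 9.35 and 9.60 in RN, 11.24, 11.34 and 11.84 in NSB, 10.19, 12.39 and 12.08 in CLE, 12.33 and 12.28 in St1, and 11.61 and 11.39 in St5. As with Fgf8, A and RN were the lowest regions of their stages, and the CLE arrays spanned the whole range of NSB and St5. In the CNH, Fgf17 read 13.16 and 13.26 at E9.5, 13.73 and 13.46 at E10.5, 13.14, 13.60 and 13.59 at E11.5, 12.54 and 12.99 at E12.5, and 11.36 and 11.85 at E13.5. In P-CNH it read 13.49 and 13.69 at E9.5, 13.72 and 13.65 at E10.5, and 13.95 and 13.48 at E11.5. The 6 tail bud regions of E9.5 to E11.5 had the highest means, 13.21 to 13.71, and each overlapped its neighbour in the order. E12.5 CNH (12.76) and St1 (12.30) came next, each separate from its neighbours, followed by E13.5 CNH, CLE, St5 and NSB (11.61 to 11.47), PP (10.57), RN (9.48), P (8.99) and A. The highest array mean was that of E11.5 P-CNH, and the highest fitted mean that of E10.5 P-CNH (13.79). Over the 16 fitted region means, Fgf8 and Fgf17 had a Pearson r of 0.97, and 0.95 with the other tested Fgf17 probe. Among 16770 other tested probes, the profile most like Fgf17 was that of an Il17rd probe (r 0.96), and the one most like Fgf8 that of a Hoxa4 probe (r 0.96).

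**Figure D1:**
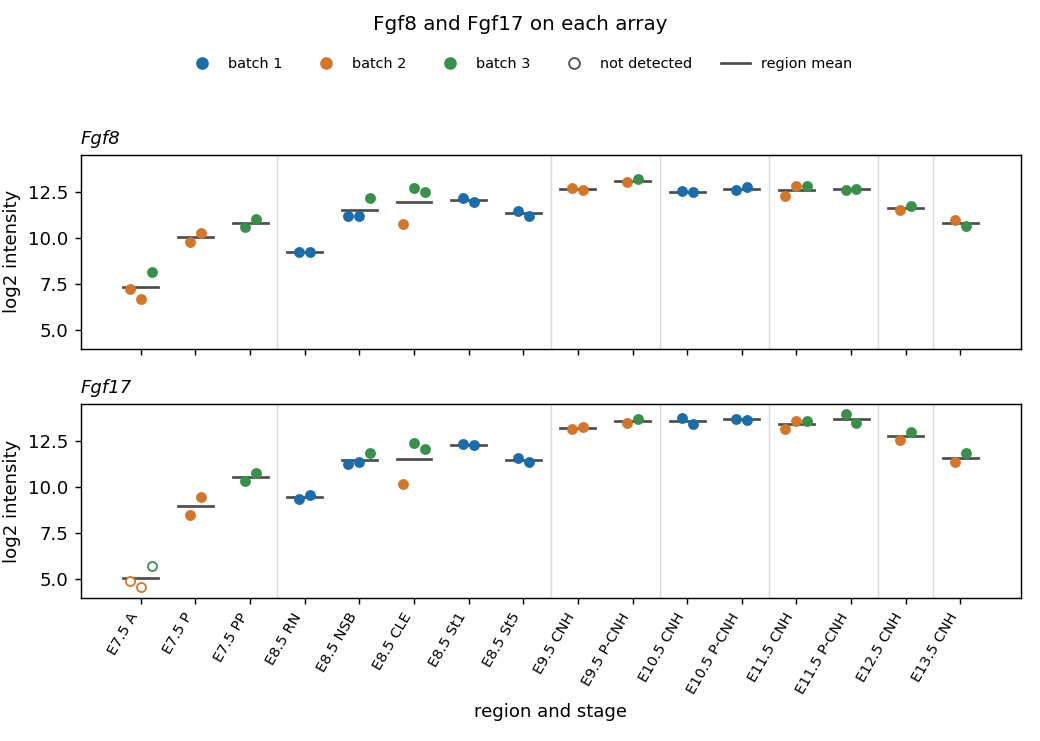
Normalised log2 intensity of Fgf8 and Fgf17 on each array of the 16 regions, coloured by batch, with open points where the probe was not detected and a line at each region mean. Fgf8 spans 6.71 to 13.20 and Fgf17 4.61 to 13.95, and in both the 3 E7.5 A arrays are the lowest.

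Fgf5 is a ligand of the early epiblast. It read 9.24, 9.68 and 8.46 in A, 8.02 and 6.35 in P, and was not detected in PP (4.82 and 5.08). At E8.5 it was 6.44 and 7.05 in RN and 6.10, 6.79 and 7.41 in NSB, and was not detected in CLE (6.45, 4.77 and 4.55), St1 (4.86 and 4.86) or St5 (4.58 and 4.57). The 3 A arrays lay above all others, while P, NSB and RN overlapped. In the tail bud Fgf5 was not detected on any array, with readings from 4.45 to 5.04. The promoters of the 4 ligands printed here, and of Fgf10, were taken from RefSeq on GRCm38.p6 as 300 bases, from 250 before the start site to 50 from it on. Motifs were sought on both strands, with matches in capitals. CTTTGNN is the core of TCF/LEF sites and AGGTGT that of T-box sites. TATAAA is the TATA box and GGGCGG the GC box. The Fgf5 promoter is at chr5:98253934-98254233 on the + strand. Of 32851 promoters of this length, 53.7% hold CTTTGNN, 13.7% AGGTGT, 13.6% TATAAA and 35.7% GGGCGG, and Fgf5 has 1 match to each. The first is from -28 to -22 and the next from -122 to -117, both on the - strand, then 34 to 39, and -74 to -69 on the - strand, counted from the start site. The set of promoters used here held no entry for Fgf8, Fgf15 or Fgf17, although these genes are annotated, so theirs were not read.
Fgf5 promoter: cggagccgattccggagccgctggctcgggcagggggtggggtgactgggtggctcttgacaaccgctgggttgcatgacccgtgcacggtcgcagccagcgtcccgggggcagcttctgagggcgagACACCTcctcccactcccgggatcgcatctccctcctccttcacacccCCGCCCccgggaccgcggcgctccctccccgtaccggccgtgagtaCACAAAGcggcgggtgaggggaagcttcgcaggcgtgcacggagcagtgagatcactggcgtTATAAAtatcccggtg

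Fgf18, which belongs to the Fgf8 subfamily and acts later in somites and skeleton, was a ligand of the early tail bud in these samples. It was not detected in any E7.5 or E8.5 region, with readings from 4.39 to 5.62. In the CNH it read 8.38 and 8.33 at E9.5 and 7.12 and 6.51 at E10.5, and in P-CNH 8.05 and 7.71 at E9.5 and 6.79 and 5.72 at E10.5. At E11.5 only 1 of 3 CNH arrays detected it (6.51, beside 4.71 and 5.47), and it was not detected in E11.5 P-CNH (4.68 and 5.39), at E12.5 (4.87 and 5.01) or at E13.5 (5.98 and 5.24). The lowest detected reading of any probe was 6.66 on E11.5 P-CNH replicate 1 and 6.10 and 7.19 on the E13.5 arrays. On E10.5 P-CNH replicate 2 it was 5.67. Some E10.5 readings of Fgf18 would thus not have been detected on those later arrays, and none on E13.5 CNH replicate 2. At E12.5, where it was 5.81 and 5.60, the E10.5 CNH readings would have been. E9.5 CNH and E9.5 P-CNH were the highest regions and shared no range with each other or with E10.5. The Fgf18 promoter is at chr11:33147351-33147650 on the - strand and has 1 GGGCGG match, from -174 to -169 on its - strand, a motif that 35.7% of all promoters hold.
Fgf18 promoter: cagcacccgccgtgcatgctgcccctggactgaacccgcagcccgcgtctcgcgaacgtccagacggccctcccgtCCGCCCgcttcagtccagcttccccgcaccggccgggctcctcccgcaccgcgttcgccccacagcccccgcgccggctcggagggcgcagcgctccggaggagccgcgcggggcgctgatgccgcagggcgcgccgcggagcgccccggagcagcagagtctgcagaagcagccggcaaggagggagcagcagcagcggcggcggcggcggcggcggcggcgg

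Fgf10 is best known from limb and lung buds, where mesoderm releases it to the epithelium. At E7.5 it was detected on 1 of 3 A arrays (6.40, beside 5.65 and 5.10) and read 7.30 and 7.78 in P and 8.41 and 8.08 in PP. At E8.5 it read 6.37 and 6.49 in RN, 7.59, 7.47 and 7.57 in NSB, 6.11 and 6.14 in St1, and 8.64 and 8.21 in St5, and was not detected in CLE (5.01, 5.39 and 4.60). St5 and PP were the high regions of these stages, and CLE and A the low ones. In the CNH it was not detected at E9.5 (5.05 and 5.21) and read 5.75 and 6.14 at E10.5, 8.05, 7.89 and 7.63 at E11.5, 8.86 and 7.98 at E12.5, and 8.29 and 9.02 at E13.5. In P-CNH it was not detected at E9.5 (5.10 and 4.58) or E10.5 (5.34 and 5.30) and read 8.04 and 6.41 at E11.5. The order by mean began with E13.5 CNH (8.66), St5, E12.5 CNH (8.42 each) and PP (8.25), which overlapped as neighbours. E11.5 CNH (7.86) came next, separate from PP but overlapping E12.5 CNH. NSB, P, E11.5 P-CNH and RN formed the next overlapping run, at 7.54 to 6.43. The 2 tested Fgf10 probes had a Pearson r of 0.95 over the regions, while Fgf10 and Fgf8 had -0.21. The profile most like that of Fgf10 was that of Aldh2, at 0.85.

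**Figure D2:**
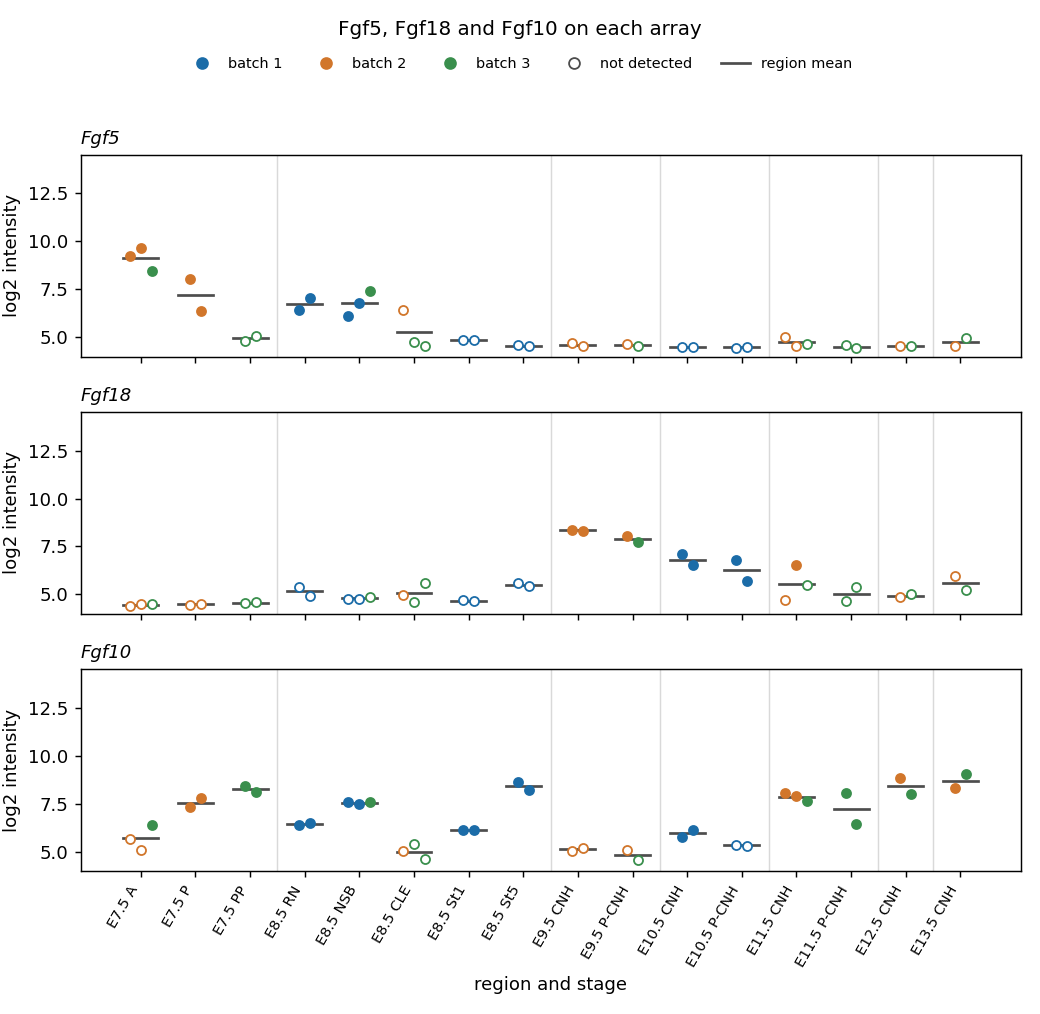
Normalised log2 intensity of Fgf5, Fgf18 and Fgf10 on each array of the 16 regions, coloured by batch, with open points where the probe was not detected and a line at each region mean. Fgf5 is highest in E7.5 A (8.46 to 9.68), Fgf18 in E9.5 CNH (8.33 and 8.38), and Fgf10 is not detected on the 3 CLE arrays and the 4 arrays of E9.5.

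Fgf15 is the mouse counterpart of human FGF19 and is expressed in the neural plate and the streak. It read 7.79, 7.23 and 7.64 in A, 9.53 and 9.75 in P, and 10.20 and 10.33 in PP. At E8.5 it was 9.07 and 9.21 in RN, 9.69, 9.71 and 10.10 in NSB, 8.14, 9.82 and 9.39 in CLE, 10.09 and 10.26 in St1, and 9.60 and 9.56 in St5. The A arrays were below all others. CLE replicate 1 was the lowest E8.5 array, and CLE had an SD of 0.87. In the CNH it was 8.18 and 8.13 at E9.5, 9.07 and 9.65 at E10.5, 9.41, 9.19 and 9.27 at E11.5, 9.15 and 9.23 at E12.5, and 8.85 and 10.05 at E13.5. In P-CNH it was 9.15 and 9.28 at E9.5, 9.66 and 9.57 at E10.5, and 10.44 and 10.10 at E11.5. The means ran from 10.27 in E11.5 P-CNH and PP to 8.16 in E9.5 CNH with each neighbour overlapping the next, and only A (7.55) was separate, so 14 of 15 neighbouring pairs overlapped. With the batch term St1 was highest (10.27), and E11.5 P-CNH and PP were at 9.97 each. Scml2 had the profile most like it, with r of 0.80.

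Fgf3 acts in the tail bud and the inner ear, and its loss in mice shortens and curls the tail. It was not detected in A (4.90, 4.95 and 4.68) and read 6.80 and 6.01 in P and 6.81 and 7.04 in PP. At E8.5 it was not detected in RN (4.98 and 5.11) or NSB (5.68, 5.62 and 5.46), was detected on 1 of 3 CLE arrays (6.97, beside 5.65 and 5.18), and read 6.76 and 6.97 in St1 and 7.27 and 7.22 in St5. It was thus detected in both streak regions and on none of the node arrays. In the CNH it read 5.98 (not detected) and 6.68 at E9.5, 6.48 and 7.15 at E10.5, 6.44, 6.60 and 6.44 at E11.5, and 6.78 and 6.35 at E12.5, and at E13.5 it was not detected (5.65 and 4.59). In P-CNH it read 7.81 and 7.25 at E9.5, 7.19 and 7.22 at E10.5, and 4.66 (not detected) and 8.15 at E11.5. By mean, E9.5 P-CNH (7.53), St5 (7.24) and E10.5 P-CNH (7.20) were highest and A (4.84) lowest, and 12 of 15 neighbouring pairs overlapped. Rftn1 had the profile most like it, with r of 0.88. Fgf3, Fgf4 and Fgf15 are consecutive protein-coding genes on chromosome 7. The Fgf3 promoter is at chr7:144838362-144838661 on the + strand, with 2 CTTTGNN matches on the - strand, from -233 to -227 and from -198 to -192. That motif is in 53.7% of all promoters.
Fgf3 promoter: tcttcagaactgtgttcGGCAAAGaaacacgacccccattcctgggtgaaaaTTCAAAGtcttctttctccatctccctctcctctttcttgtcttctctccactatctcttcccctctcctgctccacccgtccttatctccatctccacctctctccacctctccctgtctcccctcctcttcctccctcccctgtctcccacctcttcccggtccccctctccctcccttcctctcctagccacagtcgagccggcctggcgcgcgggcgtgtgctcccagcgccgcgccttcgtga

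Fgf4 is needed with Fgf8 in the streak and presomitic mesoderm. It was detected on the 2 St1 arrays, at 6.16 and 6.19, a mean of 6.17 ± 0.02 (SD, n = 2). Every other array read 4.52 to 6.01 and did not detect it. On 10 of the 36 arrays, among them CLE replicate 1 and CLE replicate 2, NSB replicate 3 and both E9.5 CNH arrays, the lowest detected reading of any probe was above 6.19, so the level of St1 would not have been detected there. The Fgf4 promoter is at chr7:144861136-144861435 on the + strand. It has 1 match to the E-box CAGGTG from -154 to -149, a motif in 20.2% of all promoters, and 2 GGGCGG matches, from -214 to -209 and from -188 to -183. The longer TCF/LEF site CTTTGAT (3.73% of all promoters) and the overlapping ETS motifs CCGGAAGT (3.89%) and ACCGGAAG (2.3%) had 0 matches in the 5 promoters read. The Fgf10 promoter had 1 match to CTTTGNN, of which CTTTGAT is a special case, and 1 to GGGCGG.
Fgf4 promoter: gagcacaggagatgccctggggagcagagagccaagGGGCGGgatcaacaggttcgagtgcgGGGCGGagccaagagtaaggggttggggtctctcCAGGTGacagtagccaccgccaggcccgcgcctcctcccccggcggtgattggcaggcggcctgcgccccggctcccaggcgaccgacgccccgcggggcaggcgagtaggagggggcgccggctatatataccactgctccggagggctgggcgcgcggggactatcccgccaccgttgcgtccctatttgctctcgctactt

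**Figure D3:**
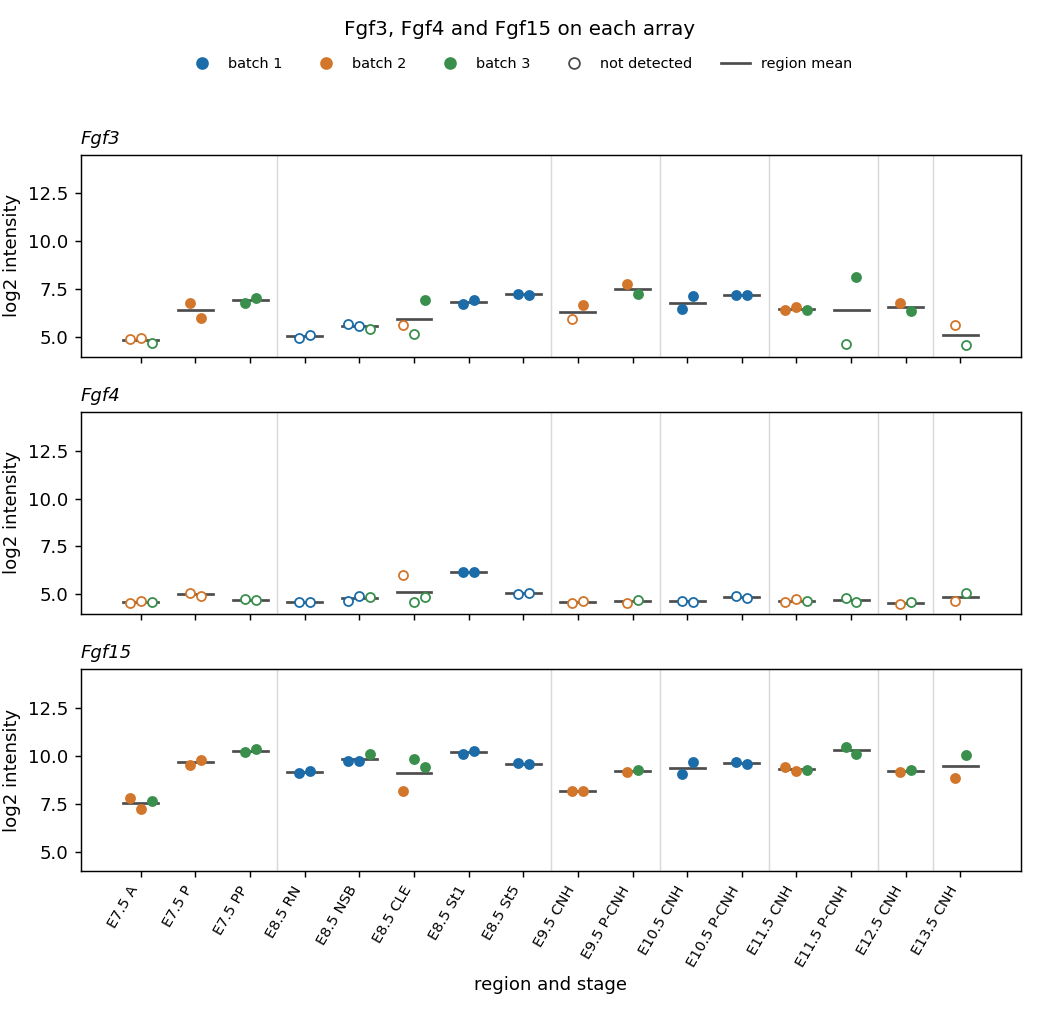
Normalised log2 intensity of Fgf3, Fgf4 and Fgf15 on each array of the 16 regions, coloured by batch, with open points where the probe was not detected and a line at each region mean. Fgf4 is detected on the 2 St1 arrays alone (6.16 and 6.19), and Fgf15 on every array, lowest in E7.5 A.

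**Figure D4:**
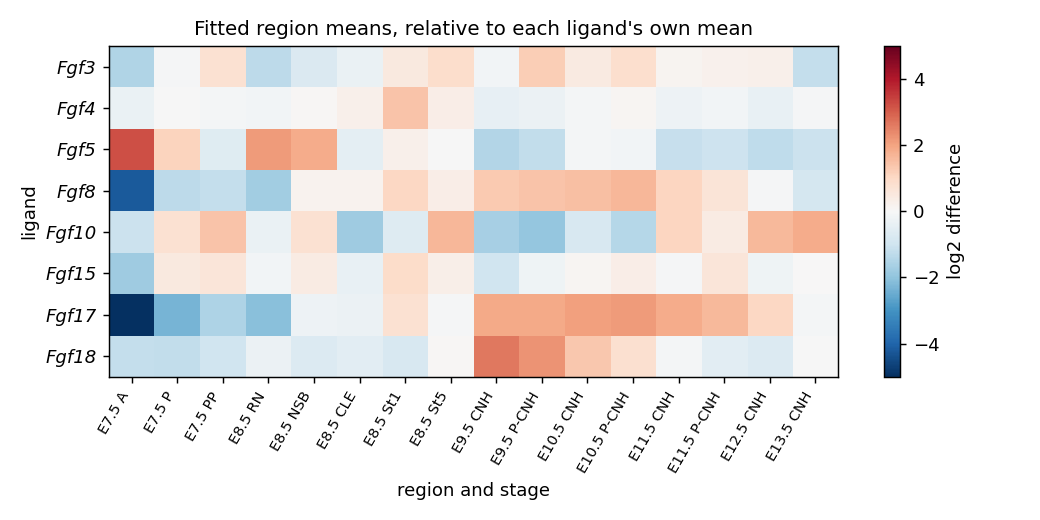
Fitted region means of the 8 ligands relative to each ligand's own mean, in log2 units, with 16 regions along the horizontal axis. Fgf8 and Fgf17 are lowest in E7.5 A and high in the tail bud from E9.5 to E11.5, where Fgf5 was not detected. The batch term can put an undetected region below any reading, as with Fgf5 in E9.5 CNH (fitted 3.96, lowest reading 4.45).

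At E7.5, the posterior side of the headfold embryo holds the streak and its new mesoderm, and the anterior side holds the future brain and its underlying tissue. Fgf8, Fgf10, Fgf15 and Fgf17 were higher posteriorly, while Fgf5 was higher anteriorly. Their arrays did not overlap between A and P for any of these 5. In P against A, 5 of 8 ligands were called, where 2.73% of all tested probes were (331 higher and 262 lower). Fgf17 was higher in P by 4.18 ± 0.34 log2 units (SE, adjusted p 2.8e-08), at least 7.63-fold since A did not detect it, and its other tested probe differed by 1.53 without a call (adjusted p 0.0827). Fgf8 was higher by 2.89 ± 0.34 (adjusted p 7.83e-06), Fgf15 by 2.26 ± 0.30 (adjusted p 4.01e-05) and Fgf10 by 1.84 ± 0.40 (adjusted p 0.0106). Fgf5 was lower, with a log2 difference of -2.11 ± 0.42 (adjusted p 0.0046). Within batch 2, which held 2 arrays of each region, the differences were 4.24, 3.07, 2.13, 2.17 and -2.27 in that order. The Fgf10 call was lost without A replicate 2 (1.49, adjusted p 0.0643) or P replicate 2 (1.60, adjusted p 0.117), and the Fgf5 call without P replicate 2 (-1.28, adjusted p 0.173). Fgf3 was not detected in A and detected on both P arrays, but its difference of 1.47 was not called (adjusted p 0.334). Over the 8 ligands the median was 1.65, or 1.09 with undetected groups at their bound, against -0.04 for all probes.

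Etv4 and Etv5, targets of the pathway, and Il17rd, an inhibitor, were higher in P. Of 20 genes listed for FGF receptors, transducers, targets and inhibitors, 17 were tested, and 5 were called higher, 0 lower and 12 not at all, where 2.73% of all tested probes were called. The 5 were Etv4 (3.40, adjusted p 9.18e-05), Etv5 (2.91, adjusted p 0.0398) and Il17rd (1.63, adjusted p 0.000419), with Dusp6 (1.51, adjusted p 0.000347) and Spred1 (1.04, adjusted p 0.00327), the last 2 named after their values were seen. The median of the pathway list was 0.15. Of 4 tested streak and presomitic mesoderm markers, Wnt3a (at least 68.5-fold, adjusted p 3.77e-15), Tbx6 (at least 25.9-fold, adjusted p 1.01e-11) and T (2.18, adjusted p 0.00951) were higher in P, and 1 was lower. Their summed linear level was 3908, 3972 and 2673 on the A arrays and 15711 and 15086 on the P arrays. Of 3 anterior epiblast markers, Otx2 was lower (-2.47, adjusted p 1.51e-06) and Lhx1 higher (1.43, adjusted p 0.000166). Their summed levels were 7073, 6239 and 4109 in A, where the Otx2 probe was brightest, and 1790 and 2349 in P. Of 7 visceral endoderm markers, Apob was higher (2.14, adjusted p 0.00154), and the summed levels were 2104, 2163 and 10890 in A and 10763 and 6066 in P. Higher in P were also Meox1 of 2 tested somite markers, Nkx1-2 of 2 tested neural markers and Foxf1a of 5 posterior streak and lateral mesoderm markers. Shh of 5 node and notochord markers was lower. No other member of these lists was called. The part of these tissues in the ligand differences was not tested.

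The proximal posterior piece lies nearest the extraembryonic tissue, where the oldest part of the streak is found. Fgf8, Fgf10, Fgf15 and Fgf17 read at or above P there, and Fgf5 fell out of detection. In PP against P, limma called 0 of 8 ligands, where 0.792% of all tested probes were called, and 1 ligand had an unadjusted p under 0.05, as had 2276 of the 21712 tested probes. Fgf5 had the largest difference, -1.73, with an adjusted p of 0.155. It was called lower in 3 of 12 alternatives. These were cyclic loess (-1.79, adjusted p 0.00588), no batch term (-2.24, adjusted p 0.0216) and ComBat-type adjustment with the regions as covariates (-1.75, adjusted p 0.0158). Fgf17 differed by 0.81 (adjusted p 0.52), Fgf10 by 0.67 (adjusted p 0.682) and Fgf8 by 0.15 (adjusted p 0.939). The median of the ligands was 0.18 and that of the pathway list 0.26, with 0 pathway genes called. Among tissue markers Meox1, Tcf15 and Otx2 were lower in PP and Hand1, Afp and Rbp4 higher, and their part was not tested. No batch held both regions.

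At E8.5 the node lies at the front of the streak, and the NSB and CLE hold the cells that feed the axis. Fgf8 and Fgf17 were lower in RN than in NSB, and the arrays did not overlap. In RN against NSB, 2 of 8 ligands were called where 0.134% of all tested probes were, or 16 higher and 13 lower. Fgf8 had a log2 difference of -1.95 ± 0.37 (adjusted p 0.0298) and Fgf17 of -1.81 ± 0.37 (adjusted p 0.0479). Both calls sat close to the threshold. Leaving out NSB replicate 1 gave -1.93 for Fgf8 (adjusted p 0.381) and -1.86 for Fgf17 (adjusted p 0.4), and NSB replicate 2 gave -1.97 (adjusted p 0.404) and -1.77 (adjusted p 0.654). Without RN replicate 1 they were -1.93 (adjusted p 0.432) and -1.69 (adjusted p 0.788), and without RN replicate 2 -1.96 and -1.94 (adjusted p 0.324 for each). The Fgf17 call was lost on leaving out 20 further single arrays, of other regions, with the same size and adjusted p of 0.0501 to 0.0733. Its other tested probe differed by -1.79 (adjusted p 0.364). The ligands had a median of -0.58, and of -0.28 at their bounds, against 0.00 for all probes. Among streak markers Wnt3a (-2.80, adjusted p 2.81e-06) and Tbx6 (-1.62, adjusted p 0.0176) were lower in RN. Summed levels were 6332 and 7164 in RN and 15829, 18185 and 17182 in NSB, and the T probe was brightest on 4 of these 5 arrays. Their part was not tested.

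The anterior streak, St1, lies just behind the NSB and gives rise to paraxial mesoderm. It was the only region with detected Fgf4, it had high Fgf8 and Fgf17, and it had no detected Fgf5. In St1 against NSB, 1 of 8 ligands was called, against 1.42% of all tested probes (3 higher and 306 lower). That ligand was Fgf4, higher by 1.39 ± 0.27 (adjusted p 0.0047) and at least 1.21-fold, and it had to be higher in St1 to be tested at all. Its call was lost without St1 replicate 1 (1.40, adjusted p 0.0581), St1 replicate 2 (1.37, adjusted p 0.0679) or NSB replicate 1 (1.28, adjusted p 0.104). Fgf8 differed by 0.86 (adjusted p 0.991), Fgf5 by -1.59 (adjusted p 0.127) and Fgf10 by -1.40 (adjusted p 0.216), without a call. Fgf5 was called lower in 8 of 13 alternatives and Fgf10 in 6 of 14, among them the BeadChip as a random block (-1.80, adjusted p 0.0185, and -1.34, adjusted p 0.0436). Fgf17 (1.01, adjusted p 0.508 in the reported fit) was called higher in 4 of 14, Fgf3 (1.21) in 3 of 13 and Fgf8 in 2 of 13. Array weights called 6 of 8 ligands (4.8% of all tested probes), and batch 1 alone called 6 (4.46%). The absence of a call for these ligands thus depended on the settings. The ligand median was 0.67 in this comparison, and 0.38 at their bounds, against 0.04 for all probes. Node and notochord markers were lower in St1, 4 of 5 called, with Shh at -3.65 (adjusted p 0.000175), Noto at -3.46 (adjusted p 0.000494) and Chrd at -2.67 (adjusted p 0.01). Their summed level was 5400, 6038 and 4813 in NSB and 652 and 722 in St1. Lhx1 was lower as well, and the part of these tissues was not tested.

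St1 and RN bracket the NSB along the midline. All 4 ligands called between them separated without overlap, with Fgf4, Fgf8 and Fgf17 high in St1 and Fgf5 high in RN. In St1 against RN, 4 of 8 ligands were called where 2.24% of all tested probes were. Fgf17 was higher by 2.83 ± 0.37 (adjusted p 2.75e-05), Fgf8 by 2.81 ± 0.37 (adjusted p 3.05e-05) and Fgf4 by 1.57 ± 0.27 (adjusted p 0.000922), at least 1.53-fold. Fgf4 again had to differ, since St1 alone detects it. Fgf5 was lower in St1 by at least 2.20-fold (log2 difference -1.89 ± 0.46, adjusted p 0.0227). The Fgf5 call was lost without St1 replicate 1 (-1.89, adjusted p 0.174), St1 replicate 2 (-1.89, adjusted p 0.183), RN replicate 1 (-2.19, adjusted p 0.0536) or RN replicate 2 (-1.58, adjusted p 0.407). Fgf3 (1.82, adjusted p 0.322) and Fgf15 (1.04, adjusted p 0.136) were not called, although the Fgf3 arrays did not overlap and RN did not detect it. The median was 1.30 for the ligands, 0.82 at their bounds, and 0.18 for the pathway list, of which 1 gene was called, Fgfr2, lower in St1 (-3.28, adjusted p 0.000201). Of the streak markers 3 of 4 were higher in St1, with Wnt3a at 3.34 (adjusted p 6.1e-09) and Tbx6 at 2.03 (adjusted p 7.36e-05), and the summed level was 18955 and 21093 in St1. Of the node markers 4 of 5 were lower, with Shh at -4.23 (adjusted p 2.49e-05), and both tested somite markers, Meox1 and Tcf15, were lower, as were Lhx1 and Otx2. Their part was not tested.

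The CLE flanks the streak and shares with the NSB the epiblast layer from which neural and mesodermal cells come. The authors removed the presomitic mesoderm and endoderm beneath the CLE, while the NSB was taken whole. The comparison is thus of pieces with different tissue layers. Fgf5 and Fgf10 were detected in NSB and not in CLE, while Fgf8 and Fgf17 were high in both. CLE replicate 1 and CLE replicate 2, with 11062 and 12289 detected probes, were among the 5 arrays with the fewest. Their lowest detected readings, 7.10 and 6.65, lay above the Fgf5 readings of 2 and 1 of the 3 NSB arrays, so Fgf5 at those levels would not have been detected on them, whereas Fgf10 at its NSB level would have been. In CLE against NSB, 2 of 8 ligands were called where 2.4% of all tested probes were (59 higher and 462 lower). Fgf10 was lower in CLE by at least 2.00-fold (log2 difference -2.56 ± 0.51, adjusted p 0.00364), and its arrays did not overlap, but with cyclic loess it was not called (-1.74, adjusted p 0.151). Fgf5 was lower by at least 1.17-fold (-2.32 ± 0.53, adjusted p 0.0142), but the undetected CLE replicate 1 (6.45) read above the lowest NSB array (6.10), and the call was lost without CLE replicate 3 (-2.02, adjusted p 0.0569). Without the 5 arrays, which leaves CLE replicate 3 alone, it was -2.86 (adjusted p 0.000104). In batch 3, with 2 CLE arrays and 1 NSB array, the differences were -2.58 for Fgf10 and -2.75 for Fgf5. Fgf8 differed by 0.00 (adjusted p 1). Fgf17 differed by -0.03 with 1 tested probe and by 0.15 with the other, both with adjusted p 1. The median was -0.01 for the ligands, also at their bounds, and -0.01 for the pathway list, with 0 of its genes called. Node markers were lower in CLE, 4 of 5 called, with Shh lower by at least 28.2-fold (adjusted p 3.99e-07), and summed levels of 318, 379 and 208 in CLE. Both tested somite markers were lower as well, Meox1 (-2.81, adjusted p 0.0025) and Tcf15 (-2.07, adjusted p 0.00333), and so were Lhx1 of 3 anterior epiblast markers (at least 5.55-fold, adjusted p 6.25e-09), Hbb-bh1 of 6 blood markers (at least 2.78-fold, adjusted p 0.0303) and Ttr of 7 visceral endoderm markers (at least 3.47-fold, adjusted p 0.0449). Their part was not tested.

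The posterior streak, St5, gives rise to lateral and ventral mesoderm. It had more Fgf10 than St1, and Fgf4 was not detected in it. In St5 against St1, 2 of 8 ligands were called where 3.27% of all tested probes were (419 higher and 290 lower). Fgf10 was higher in St5 by 2.30 ± 0.44 (adjusted p 0.002), with separate arrays. Fgf4 was lower by at least 1.42-fold (-1.11 ± 0.27, adjusted p 0.0197), the direction that its detection in St1 alone required. Its call was lost without St5 replicate 1 (-1.08, adjusted p 0.165), St5 replicate 2 (-1.15, adjusted p 0.139), St1 replicate 1 (-1.13, adjusted p 0.137) or St1 replicate 2 (-1.10, adjusted p 0.159). Fgf8 differed by -0.71 (adjusted p 0.666) without a call. Over the ligands the median was -0.44, and -0.26 at their bounds, against -0.01 for all probes and -0.02 for the pathway list. All 5 posterior streak and lateral mesoderm markers were higher in St5, with Tbx4 at 5.09 (adjusted p 4.77e-11), Tbx3 at 5.06 (adjusted p 0.000106) and Foxf1a at least 13.4-fold (adjusted p 6.55e-07). Their summed level was 599 and 555 in St1, where the Bmp4 probe was brightest, and 9210 and 10749 in St5, where that of Tbx4 was. Of the 2 tested neural markers, Nkx1-2 was lower in St5 (-2.32), as were Meox1 and Tbx6. The part of these tissues in the Fgf10 difference was not tested.

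The 5 comparisons within E8.5 thus gave 11 calls out of 40, against 2055 of 108560 over all tested probes (1.89%), and 3 of the 11 were of Fgf4 and followed from its detection in St1 alone, so 8 remained. The 2 within E7.5 gave 5 of 16, against 765 of 43424 (1.76%). Between E7.5 and E8.5 the posterior embryo narrows into a streak with a defined border to the node. Fgf17 was the only ligand called between NSB and the E7.5 posterior piece, although the arrays of Fgf8 were separate as well. In NSB against P, 1 of 8 ligands was called where 3.07% of all tested probes were. Fgf17 was higher in NSB by 2.07 ± 0.49 (adjusted p 0.0191), its arrays did not overlap, and its other tested probe differed by 2.19 without a call (adjusted p 0.0714). The call was lost without P replicate 1 (1.58, adjusted p 0.124), with cyclic loess (2.03, adjusted p 0.0867) and with ComBat-type adjustment without covariates (0.73, adjusted p 0.288). Fgf8 differed by 1.52 without a call (adjusted p 0.105). The ligands had a median of 0.29, and 0.00 at their bounds. From the pathway list Il17rd (1.77, adjusted p 0.00941) and Fgfrl1 (1.65, adjusted p 0.0105) were higher in NSB. Node markers were higher too, 3 of 5 called, with Shh at 3.50. Visceral endoderm markers were lower, 2 of 7 called, Apob by at least 20.2-fold and Amn (-3.16), with a list median of -3.12, as were the anterior epiblast markers Otx2 (-3.66) and Lhx1 (-1.20), and Hbb-bh1 of 6 blood markers was at least 3.90-fold higher. Their part in the Fgf17 difference was not tested. In St5 against PP, the posterior ends of the 2 stages, limma called 0 of 8 ligands where 1.03% of all tested probes were called, and 2 had an unadjusted p under 0.05, as had 11.8% of all probes. Fgf8 differed by 1.52 there (adjusted p 0.262) and Fgf17 by 1.47 (adjusted p 0.281), called in 3 of 12 and 3 of 13 alternatives. Fgf10 differed by 0.22 (adjusted p 0.94) with 1 tested probe and -0.25 (adjusted p 0.92) with the other. With array weights 2 ligands and 24.9% of all tested probes were called. With ComBat-type adjustment with the regions as covariates these were 2 and 21.6%. Tbx4 was higher in St5 and Lhx1, Apoa2 and Apob lower, and their part was not tested. The ligand median was 0.51, and 0.06 at their bounds. No batch held both regions of either comparison, which were linked through the model's batch term.

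From E8.5 to E9.5 the trunk gives way to the tail, and the CNH takes over from the NSB as the place where axial progenitors lie. Fgf17 and Fgf18 were higher in the E9.5 CNH, and Fgf5 and Fgf10 were no longer detected in it. None of these 4 overlapped between the 2 regions. In E9.5 CNH against NSB, 4 of 8 ligands were called where 5.04% of all tested probes were (444 higher and 651 lower). Fgf18 was at least 5.48-fold higher (3.35 ± 0.57, adjusted p 0.000554) and Fgf17 rose by 2.15 ± 0.49 (adjusted p 0.00927). Fgf18 entered the test only through tail bud arrays, so the direction of its call partly followed from where it was detected. Fgf5 was at least 1.48-fold lower (-3.30 ± 0.61, adjusted p 0.0013), and its direction too partly followed from where it was detected. Its array means were 6.77 in NSB and 4.62 in E9.5 CNH. The batch term put the undetected E9.5 CNH at 3.96, below the lowest Fgf5 reading on any array (4.45). The fitted size is thus larger than the readings show. Fgf10 was at least 2.53-fold lower (-2.41 ± 0.58, adjusted p 0.014), but its other tested probe differed by -0.95 without a call (adjusted p 0.379), and the call was lost without E9.5 CNH replicate 1 (-2.33, adjusted p 0.0703). Fgf8 differed by 1.10 (adjusted p 0.258) and Fgf15 by -1.44 (adjusted p 0.0548), neither called, but Fgf15 was called lower in 8 of 12 alternatives. The median was 0.08 for the ligands, 0.21 at their bounds, 0.19 for the pathway list and 0.07 for all probes. Fgfr2 was lower (-2.69, adjusted p 0.018), the only pathway gene called. No batch held both regions.

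**Figure D5:**
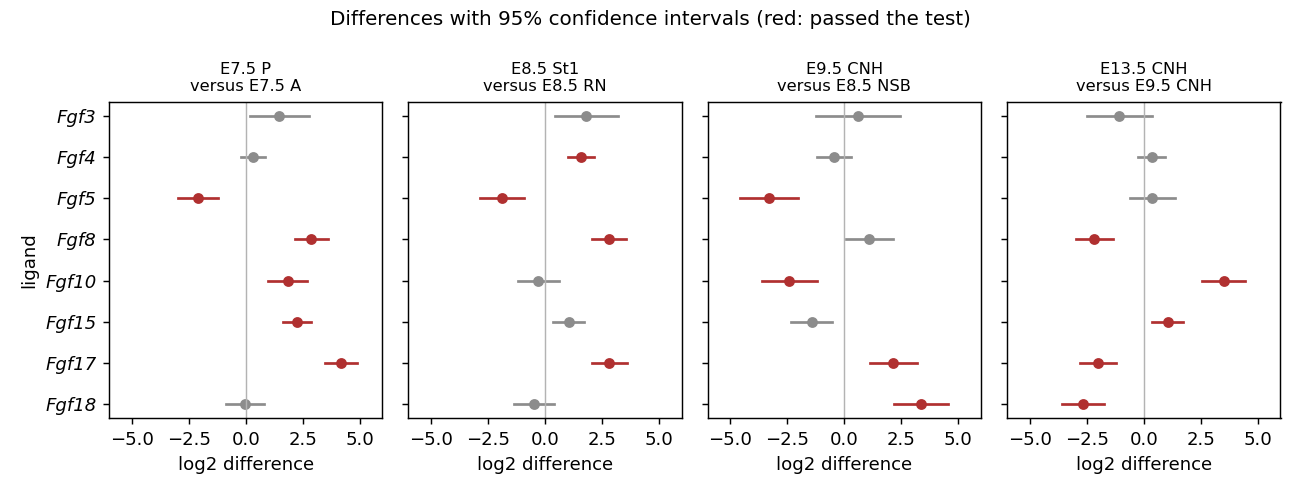
Fitted log2 differences of the 8 ligands with 95% confidence intervals in 4 comparisons, P against A, St1 against RN, E9.5 CNH against NSB, and E13.5 CNH against E9.5 CNH, with called ligands in red. The called numbers are 5, 4, 4 and 5 of 8.

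The E10.5 CNH shares batch 1 with the NSB, so that the change from streak to tail bud can be read there without crossing batches. The 4 ligands called at E9.5 were called in the same direction here, and Fgf8 was called too. For Fgf5 and Fgf18 that direction again partly followed from where they were detected. Whether the E9.5 and E10.5 differences of Fgf8 from NSB were unlike was asked in the comparison of E10.5 with E9.5, which called no ligand. In E10.5 CNH against NSB, 5 of 8 ligands were called where 7.14% of all tested probes were (769 higher and 781 lower). Fgf17 was higher by 2.30 ± 0.37 (adjusted p 0.000142), Fgf8 by 1.31 ± 0.37 (adjusted p 0.0287) and Fgf18 by 2.05 ± 0.43, at least 1.89-fold (adjusted p 0.00254). Fgf5 was lower by at least 2.23-fold (-1.95 ± 0.46, adjusted p 0.00704), and Fgf10, which both regions detected, differed by -1.58 ± 0.44 (adjusted p 0.0249). The Fgf5 bound takes in NSB replicate 3 of batch 3. Mean Fgf5 was 6.77 over all 3 NSB arrays and 6.45 over those of batch 1, so within batch 1 the bound is smaller. Fgf8 lost its call without NSB replicate 1 (1.33, adjusted p 0.153), NSB replicate 2 (1.29, adjusted p 0.168), E10.5 CNH replicate 1 (1.28, adjusted p 0.176) or E10.5 CNH replicate 2 (1.34, adjusted p 0.141). Fgf10 lost it without the same arrays, in that order -1.52 (adjusted p 0.176), -1.64 (adjusted p 0.119), -1.39 (adjusted p 0.247) and -1.78 (adjusted p 0.0744). Fgf5 lost it without NSB replicate 2 (-1.60, adjusted p 0.145), E10.5 CNH replicate 1 (-1.96, adjusted p 0.0574) or E10.5 CNH replicate 2 (-1.94, adjusted p 0.0627), and Fgf18 without E10.5 CNH replicate 1 (1.75, adjusted p 0.0686). The median of the ligands was 0.50, and 0.46 at their bounds.

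Of the pathway list 3 of 17 genes were called between E10.5 CNH and NSB, where 7.14% of all tested probes were. Fgfr2 was lower in the E10.5 CNH (-1.93, adjusted p 0.0169), and Fgfrl1 (0.96, adjusted p 0.0266) and Dusp6 (0.94, adjusted p 0.0238) were higher, with a list median of 0.12. Blood markers were higher in the tail bud, 3 of 6 called at each stage, led by Hbb-y, at least 193-fold at E9.5 (adjusted p 3.76e-08) and at least 191-fold at E10.5. Their summed level was 3939, 1744 and 1181 in NSB, 37271 and 37803 in E9.5 CNH, and 29348 and 31107 in E10.5 CNH, with the Hbb-y probe brightest at E9.5. At both stages Cyp26a1 was higher and Lhx1 and Otx2 were lower than in NSB. Meox1 and Cldn4 were also lower at E9.5, and at E10.5 Tcf15 was higher and Nkx1-2, Tbx4, Ttr and Amn lower. Their part in the ligand differences was not tested.

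After E9.5 the tail bud keeps adding somites until elongation of the axis ends. Fgf8 and Fgf17 stayed at high readings through E11.5 and were lower at E12.5 and E13.5. Fgf10 came into detection. Fgf18 went out of it, though the E13.5 arrays had higher lowest detected readings than those of E10.5. From E9.5 to E12.5 few probes passed between adjacent days in the reported fit, but not in all alternatives. In E10.5 against E9.5 CNH, limma called 0 of 8 ligands where 0.0737% of all tested probes were called, and 0 had an unadjusted p under 0.05, against 6.78% of all probes. Fgf18 differed there by -1.30 (adjusted p 0.853), and the 2 Fgf10 probes went opposite ways without a call. In E11.5 against E10.5 CNH, limma called 0 of 8 where 0.0829% of all tested probes were called, and 2 had an unadjusted p under 0.05, against 3.96% of all probes. Fgf10 differed by 1.89 (adjusted p 0.79) and Fgf18 by -1.44 (adjusted p 1). In E12.5 against E11.5 CNH, limma called 0 of 8 where 0.226% of all tested probes were called, and 2 had an unadjusted p under 0.05, against 7.63% of all probes. Fgf8 differed by -1.11 (adjusted p 0.268), and by -1.02 in batch 2 and -1.08 in batch 3, both of which held the 2 regions. Higher shares came in some alternatives, for E10.5 against E9.5 to 13% with ComBat-type adjustment with the regions as covariates (3 ligands called) and 16.7% with array weights (2), for E11.5 against E10.5 to 7.08% with array weights (2), and for E12.5 against E11.5 to 4.96% without the 5 arrays with the fewest detected probes (2). The ligand medians of these 3 comparisons were 0.43, -0.25 and -0.15, and 0.08, -0.15 and 0.00 at the bounds. The first 2 cross from batch 1 to batches 2 and 3, which NSB replicate 3 alone ties to it.

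From E12.5 (50 to 55 somites) to E13.5 (60 to 63 somites) the embryos still gained somites. Fgf8 and Fgf17 readings were lower at E13.5 without overlap, and Fgf3 was detected at E12.5 and not at E13.5. E13.5 CNH replicate 2 had the fewest detected probes of all arrays (10814), and its lowest detected reading, 7.19, was above both Fgf3 readings of E12.5, so a reading at the E12.5 level lay below what was detected on this array. In E13.5 against E12.5 CNH, limma called 0 of 8 ligands where 9.33% of all tested probes were called (1042 higher and 984 lower). The share called ran from 0.175% with array weights (0 ligands) to 16.1% with ComBat-type adjustment with the regions as covariates (1). It was 2.56% with no batch term (0), 2.86% with cyclic loess (0) and 16% with the BeadChip block (1). In the reported fit 3 ligands had an unadjusted p under 0.05, as had 28.7% of all probes. Fgf17 differed by -1.16 with an adjusted p of 0.0504, just past the threshold, and was called in 6 of 13 alternatives, Fgf8 by -0.82 (adjusted p 0.147) and Fgf3 by -1.45 (adjusted p 0.154). In batches 2 and 3 the differences were -1.18 and -1.14 for Fgf17, -0.58 and -1.06 for Fgf8, and -1.14 and -1.77 for Fgf3. Fgf10 had opposite signs in the 2 batches, -0.56 and 1.03. The median was 0.22 for the ligands, 0.00 at their bounds, and -0.29 for the pathway list. Of that list 2 of 17 were called, Etv5 (-3.23, adjusted p 0.0202) and Dusp4 (-2.18, adjusted p 0.00413), both lower at E13.5. The streak markers Wnt3a and Cyp26a1 were lower as well (list median -1.28), as was Noto, while Bmp4 and Alas2 were higher. Whether these tissues had a part in the ligand differences was not tested.

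The longer span from the mid tail bud to the last stage sampled was read between E10.5 and E13.5. In the reported fit, Fgf8 was the only ligand called with its brightest probe. In E13.5 against E10.5 CNH, 1 of 8 ligands was called where 1.68% of all tested probes were. The share ran from 0.672% with cyclic loess (0 ligands called) to 23.2% with no batch term (4). It was 18.8% with ComBat-type adjustment with the regions as covariates (5), 11.3% with that without covariates (4) and 11.1% with the BeadChip block (3). Fgf8 fell by 2.37 ± 0.59 (adjusted p 0.0383), with no overlap of arrays. The call was lost with replicate number as a block (-2.10, adjusted p 0.176), with cyclic loess (-2.40, adjusted p 0.0783), and on leaving out any of 16 single arrays, with adjusted p from 0.0507 to 0.199. Without E13.5 CNH replicate 2 the difference was -1.75 (adjusted p 0.199), without E10.5 CNH replicate 1 -2.34 (adjusted p 0.12) and without E10.5 CNH replicate 2 -2.40 (adjusted p 0.105). Without NSB replicate 1 it was -2.39 (adjusted p 0.11), without NSB replicate 2 -2.36 (adjusted p 0.118), and without the other 11, of further regions, -2.37 with adjusted p of 0.0507 to 0.0531. Fgf10 (2.68, adjusted p 0.0526) and Fgf17 (-2.14, adjusted p 0.071) were not called with their brightest probe, while their other tested probes were, at 3.11 (adjusted p 0.007) and -3.40 (adjusted p 0.0219). Of 13 alternatives, 9 called Fgf17 and 7 called Fgf10. Fgf18 (-1.38, adjusted p 0.518 in the reported fit) was called in 3 of 12, and Fgf3 in 1 of 12. The median of the ligands was -1.17, and -0.11 at their bounds, against -0.03 for all probes. Fgfr2 was higher at E13.5 (3.65, adjusted p 0.016). Of 4 tested streak markers Wnt3a was lower (-1.55, adjusted p 0.0476, list median -1.36). Tcf15 of 2 tested somite markers (-2.70, list median -0.88) and Hbb-bh1 of 6 blood markers (-4.92, list median -0.33) were lower too. No other member of these lists was called. The surface ectoderm markers Trp63 (at least 12.1-fold) and Krt14 (at least 40.0-fold) were higher. Their part in the Fgf8 fall was not tested. With this, the 9 planned comparisons between stages gave 11 calls out of 72, against 6009 of 195408 over all tested probes (3.08%), a share that ran up to 14.9% in the alternatives, with 26 of 72.

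Batches 2 and 3 held the CNH of E9.5, E11.5, E12.5 and E13.5, and 2 comparisons among these were added after seeing the data. Fgf18 was lower and Fgf10 higher by E11.5, and by E13.5 Fgf8 and Fgf17 had fallen as well. In E11.5 against E9.5 CNH, 2 of 8 ligands were called where 5.1% of all tested probes were. Fgf10 was at least 3.14-fold higher (2.72 ± 0.40, adjusted p 0.000181) and Fgf18 fell by 2.75 ± 0.40 (adjusted p 0.000134), and in batch 2 alone, with 2 arrays of each, the differences were 2.84 and -2.74. The share of all probes ran from 0.921% with a BeadChip block (2 ligands called) to 22.9% with array weights (3). Surface ectoderm markers Cldn4 (2.26) and Trp63 (at least 1.15-fold) and the somite marker Meox1 (2.30) were higher at E11.5, and the neural marker Nkx1-2 was lower (-1.96), and their part was not tested. In E13.5 against E9.5 CNH, 5 of 8 ligands were called where 23% of all tested probes were (2294 higher and 2706 lower), so many genes moved over this interval. The share moved with the settings, to 7.01% with array weights (3 ligands called), 7.55% with a BeadChip block (4), 11.9% with cyclic loess (5) and 32.9% without the 5 arrays with the fewest detected probes (5). Fgf10 was at least 5.46-fold higher (3.51 ± 0.45, adjusted p 9.58e-06) and Fgf15 rose by 1.05 ± 0.33 (adjusted p 0.0273). The Fgf15 call was lost with the BeadChip block (1.27, adjusted p 0.0596) and the replicate block (0.96, adjusted p 0.0596). It was also lost with array weights (1.23, adjusted p 0.146) and ComBat-type adjustment without covariates (0.76, adjusted p 0.0905). Fgf18 was at least 3.27-fold lower (-2.68 ± 0.44, adjusted p 0.000162), Fgf8 fell by 2.16 ± 0.38 (adjusted p 0.000333) and Fgf17 by 1.99 ± 0.38 (adjusted p 0.000722). In batch 2, with 1 E13.5 and 2 E9.5 arrays, the 5 differences were 3.17, 0.70, -2.37, -1.70 and -1.85. The arrays of all 5 were separate. Fgf15 lost its call without E9.5 CNH replicate 1 (1.07, adjusted p 0.101), E9.5 CNH replicate 2 (1.02, adjusted p 0.121) or E13.5 CNH replicate 2 (0.70, adjusted p 0.225), and the other calls of these 2 comparisons held on leaving out each single array. Fgf18 in E13.5 against E9.5 was not called with array weights (-2.69, adjusted p 0.0567). The ligand medians were 0.19 and -0.36, and 0.00 in both at the bounds, against -0.04 and -0.12 for all probes.

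In E13.5 against E9.5 CNH, 4 of 17 pathway genes were called, where 23% of all tested probes were. Fgfr2 rose by 4.42 (adjusted p 3.14e-06), while Etv5 (-3.03, adjusted p 0.0139), Dusp4 (-2.03, adjusted p 0.00251) and Il17rd (-1.16, adjusted p 0.00674) were lower, the last named after its values were seen, and the list median was -0.10. Mean Fgfr2 was 12.59 in A, 9.81 in NSB, 7.78 in E9.5 CNH, 9.11 at E11.5, 10.62 at E12.5 and 11.94 at E13.5. Surface ectoderm markers were higher at E13.5, 3 of 5 called, with Krt14 at least 26.5-fold (adjusted p 2.03e-06), Trp63 at least 8.03-fold (adjusted p 9.17e-08) and Cldn4 at 4.03 (adjusted p 0.000115). Their summed level was 296 and 320 at E9.5, 498 and 449 at E10.5, 824, 455 and 1006 at E11.5, 1694 and 1618 at E12.5, and 4211 and 4261 at E13.5, where the Krt14 probe was brightest. Streak markers were lower, 2 of 4 called, Cyp26a1 (-2.25) and Wnt3a (-0.94), with summed levels of 24101 and 25687 at E9.5 and 19361 and 9960 at E13.5. Meox1, Bmp4, Chrd, Otx2 and Hbb-b1 were also higher, and Nkx1-2, Noto and Hbb-bh1 lower. The part of these tissues in the falls of Fgf8, Fgf17 and Fgf18 and in the rise of Fgf10 was not tested.

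The CNH holds the notochord end and the progenitors, and the P-CNH behind it is mostly mesoderm progenitor tissue, so the pair asks whether a ligand is tied to the hinge itself. Fgf8 and Fgf17 were high in both pieces on every day, and Fgf18 was detected in both at E9.5 and E10.5. In P-CNH against CNH, limma called 0 of 8 ligands at E9.5, E10.5 and E11.5, so 0 of 24 in all, where 0.17%, 0.318% and 0.161% of all tested probes were called. At an unadjusted p under 0.05 there were 1, 0 and 0 ligands, against 4.83%, 2.01% and 4.71% of all probes. The largest ligand difference at E9.5 was that of Fgf3, 1.34 (adjusted p 1), and 1.48 in batch 2 with 1 and 2 arrays, while Fgf15 differed by 0.81 (adjusted p 0.859). At E9.5 Fgf17 differed by -0.01 with 1 tested probe and 0.09 with the other. At E11.5 Fgf15 differed by 0.65 (adjusted p 1), and by 1.00 in batch 3. The ligand medians were 0.14, 0.13 and -0.08, and 0.00, 0.05 and 0.00 at the bounds. Whether these differences varied between days was tested as an interaction, and no ligand passed (adjusted p 0.999 to 1). With array weights 3 of 24 were called (1.7% of all tested probes). In the reported fit the notochord marker Shh was lower in P-CNH by at least 21.4-fold at E9.5 (adjusted p 4.24e-05) and at least 34.9-fold at E10.5 (adjusted p 3.64e-06). At E11.5 it differed by -4.30 (adjusted p 0.000297). These differences are far larger than those of the ligands, so they do not show that ligand differences of the sizes seen would have been called. Of the 5 node and notochord markers 2, 3 and 1 were called on the 3 days, and their summed level was 2275 and 2454 in CNH and 414 and 316 in P-CNH at E9.5, 4079 and 3022 against 394 and 401 at E10.5, and 5322, 3759 and 2176 against 566 and 507 at E11.5. The pathway list had 0 genes called in these 3 comparisons.

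Few other FGF genes could be tested in these samples. The table holds 22 genes of the FGF family by symbol, and of the 14 beyond the 8 read here 6 were tested, with 0 called in the 19 planned comparisons. Fgf13 was detected on 36 arrays, Fgf22 on 34 and Fgf9 on 21. In the 2 added comparisons, Fgf22 was at least 1.89-fold lower at E13.5 than at E9.5 (adjusted p 0.0375). Fgf12 and Fgf1 passed as well, but they were detected on only 2 arrays and 1 array and entered the test through these, and they read close to background. The median of these 6 genes in the comparison of E13.5 with E9.5 was -0.78, and -0.20 at their bounds.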

How the data were processed

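RNA from pools of dissected embryo pieces was read on MouseWG-6 v2.0 arrays of Illumina, 6 to a BeadChip, in 3 batches of 12. The authors deposited, for every probe and array, an average bead intensity on a linear scale without normalisation between arrays. The deposited detection p-value gives the share of control beads on the array that were as bright as the probe. The authors processed their own values with lumi, whose version is not given, and neither those values nor their lists were used.

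The deposited intensities were background-corrected (normexp, offset 16), quantile-normalised and log2-transformed by the neqc function (limma 3.58.1, R 4.3.3), with control probes inferred from the detection p-values. A probe counted as detected at a detection p-value under 0.01, and those detected on no array, 23569, were left out, which left 21712 to test. A single limma fit had terms for the 16 regions and the 3 batches, with 18 residual degrees of freedom. It gave 2-sided moderated tests for 19 planned and 2 added comparisons and an F-test over regions, adjusted by Benjamini-Hochberg over all tested probes within each. Calls needed an adjusted p no higher than 0.05 and a 1.5-fold difference or more, and in the F-test the adjusted p alone. Each gene is given by its brightest probe, the one with the highest mean over 36 arrays. Where no array of a group detected a probe, its arrays were set to at least their lowest detected intensity and the fold is a bound.

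The members and the gene lists were chosen with earlier results of these data known. Named are all 8 ligands, with every value for those detected on at least 12 arrays and ranges or single values for the others, other tested probes where direction or call differed, and from each list at most 3 called genes per comparison with the largest absolute log2 difference. Dusp6, Spred1 and Il17rd were also named in 1 comparison each after their values were seen. The lists were the FGF pathway, other FGF genes, and markers of streak and presomitic mesoderm, node and notochord, posterior streak and lateral mesoderm, neural tissue, anterior epiblast, somite, blood, visceral endoderm and surface ectoderm. A marker named without a count is a called member of its list, whose other members need not have moved with it. Likeness of profiles is Pearson's r over the fitted region means, for ligands detected on at least 12 arrays against the other tested probes whose fitted means ranged over at least 1.

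The alternatives were other background corrections, offsets, normalisations, batch terms, filters, array weights, a replicate block, a BeadChip block, second probes, batch 1 alone and leaving out each array. Replicate numbers were checked for pairing, and arrays of different regions with the same number had a median r of 0.00148 over 246 pairs. Within batch 1 the number is that of the BeadChip, and there the median was 0.183 over 30 pairs with the same number and -0.183 over the 30 with different numbers, 2 values tied to each other by having 2 arrays per region. In batches 2 and 3 it was -0.0587 and -0.0358. Replicates 1 and 2 of A and P also have the same piece counts, 9 and 13. The block correlation of arrays on a BeadChip was 0.483. The reported fit has neither block, so pairing was covered only by the alternatives. The steps were tested on simulated data. Precision is limited by the number of arrays, 2 or 3 per region. Batch 1 is tied to the others by NSB replicate 3 alone, so comparisons across it rest on that array.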

Additional observations from a re-analysis of the deposited data

How the results depend on the processing

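None of the 34 called ligand differences, 7 of them in the 2 comparisons added later, changed direction under the 14 alternatives or on leaving out single arrays. Of the 34, 34 were kept with ComBat-type adjustment with the regions as covariates, with a filter on detection in all arrays of some region, and without the 5 arrays with the fewest detected probes, a setting chosen after seeing the data that leaves 4 regions with a lone array assumed to vary like the others. With the BeadChip as a random block 33 were kept, with ComBat-type adjustment without covariates or array weights 32, with no background correction, no batch term or the replicate block 31, with cyclic loess or no filter 30, and with an offset of 100 27. Only Fgf10 and Fgf17 have a second tested probe, with which 10 of their 14 calls were kept and 4 lost. In batch 1 alone all 14 that could be compared were kept and 12 were gained, with sizes that cannot differ, since NSB replicate 3 is the only link of that batch to the others. The replicate block lost Fgf8 in E13.5 against E10.5 CNH (-2.10, adjusted p 0.176), Fgf17 in RN against NSB (-1.81, adjusted p 0.0711) and Fgf15 in E13.5 against E9.5 CNH (0.96, adjusted p 0.0596), and it gained Fgf15 in E9.5 CNH against NSB (-1.66, adjusted p 0.0353). Other losses included Fgf8 in E10.5 CNH against NSB without a batch term (0.98, adjusted p 0.239) and Fgf5 in St1 against RN with no background correction (-0.95, adjusted p 0.15), an offset of 100 (-0.77, adjusted p 0.201), no batch term (-1.89, adjusted p 0.0647) and no filter (-1.89, adjusted p 0.0503). Over all alternatives but leaving out single arrays, the highest adjusted p of the 3 lost with the replicate block were 0.176, 0.364 and 0.146.

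Calls of all tested probes moved too, and their share over the same comparisons follows each count. In the added comparison of E13.5 with E9.5 it was 23%, and 7.01% to 32.9% in the alternatives. The calls within E8.5, 11 of 40 (1.89%), became 6 with an offset of 100 (1.66%), 18 with ComBat-type adjustment without covariates (4.03%), 23 with array weights (6.19%) and 19 without the 5 arrays (6.33%). The 11 of 72 between stages (3.08%) became 26 with ComBat-type adjustment with the regions (14.9%), 23 with array weights (12.8%) and 24 without the 5 arrays (10.7%). The 0 of 24 between P-CNH and CNH (0.216%) became 3 with array weights (1.7%) and 3 without the 5 arrays (1.73%), where Fgf3 at E11.5 (1.86, adjusted p 0.00241) and E9.5 (1.35, adjusted p 0.00645) and Fgf15 at E9.5 (1.02, adjusted p 0.0159) passed. The cause was not tested. Among differences reported without a call, Fgf17 in E13.5 against E10.5 CNH was called in 9 of 13 alternatives and Fgf10 in 7 of 13, Fgf15 in E9.5 CNH against NSB in 8 of 12, Fgf17 in E13.5 against E12.5 CNH in 6 of 13, and in St1 against NSB Fgf5 in 8 of 13 and Fgf10 in 6 of 14. Fewer alternatives called others. Among these were Fgf8 in NSB against P (4 of 12), Fgf3 and Fgf15 in St1 against RN (4 of 13 each) and Fgf17 in St1 against NSB (4 of 14). Fgf10 in E11.5 against E10.5 CNH was called in 4 of 13. Fgf8 in E9.5 CNH against NSB and Fgf5 in PP against P were called in 3 of 12 each. The array weights came from an iteration that stopped before full convergence.

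Leaving out 1 array gave 7 to 8 ligands in the F-test, 4 to 6 calls within E7.5, 7 to 13 within E8.5, 6 to 16 between stages and 0 to 0 between P-CNH and CNH. The 7 within E8.5 came without St1 replicate 1 or St1 replicate 2. Between stages 6 came without E10.5 CNH replicate 1, and 7 without E10.5 CNH replicate 2 or NSB replicate 2. Without NSB replicate 3, batch 1 could not be compared with the others, so the F-test and the counts within E8.5 and between stages have 35 such settings in place of 36. Fgf4 lost its calls at the larger offset through the size of the fold, 0.48 for St1 against NSB, 0.53 for St1 against RN and -0.41 for St5 against St1, as signal little above background limits what can be measured.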
